A study of Sus scrofa with 3 samples.

Results

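The genes of the spliceosomal small nuclear RNAs (snRNAs) were described in RNA-seq libraries from 3 cultures of pig mesenchymal stem cells (MSC). Members were the entries of the gene table with the biotype snRNA and the name of a spliceosomal snRNA (U1, U2, U4, U5, U6, U11, U12, U4atac or U6atac). They numbered 1043 of 30477 entries. Of these, 852 were named U6, 104 U2, 54 U1, 18 U4, 12 U5 and 3 U12. No entry carried the name U11, U4atac or U6atac, and these RNAs are not analysed here. A further 4 entries named U7, an snRNA that acts in 3′ end formation of histone mRNA and not in splicing, and 30 snRNA entries without a name were set aside from the 1077 entries of that biotype.

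The labels put all 3 samples in 1 group, with no treatment or genotype, so levels and their spread could be measured but no conditions compared. The cells came from adipose tissue of adult pigs and were grown in advanced MEM, a culture medium, with lysate of human platelets. Total RNA was isolated with a miRNeasy kit, which keeps small RNA, and 0.5 µg per sample entered a TruSeq V2 library. The animal behind each culture is not in the labels, so p-values measure only the spread between these samples, which may be technical.

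The spliceosome removes introns from pre-mRNA, and its snRNAs recognise splice sites and form the catalytic core. U1 pairs with the 5′ splice site and U2 with the branch point, while U4 delivers U6 in a base-paired duplex and is released before U6 joins the active site. U5 holds the exon ends in both spliceosomes. The minor spliceosome, which removes the rare U12-type introns, uses U11, U12, U4atac and U6atac in place of U1, U2, U4 and U6. Mammalian genomes hold many copies of these genes, most of them pseudogenes, and near-identical copies share reads. How the authors' counting treated such reads is not given in the sources used here, so the level of any single copy is uncertain. If such reads were left out, the sums of the classes and their ratios are affected as well, and not equally.

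Reads counted over all entries numbered 51788677, 62248183 and 64774044 in cultures 1, 2 and 3 (59603635 ± 6884778, SD, n = 3). Small RNA entries took 28.3%, 9.12% and 8.36% of them, so culture 1 stood apart in composition, and its protein-coding share was 70.3%, against 88.6% and 88.8% in the other cultures. Levels are in RPKM, which divides reads by the length of the gene model in kilobases and by the depth of the library. Over the 107 bases of a typical U6 entry, 1 RPKM is 5.59, 6.72 and 6.996 reads in cultures 1, 2 and 3. An entry of that length with no read could still have up to 3 reads by counting error, or 0.536, 0.446 and 0.429 RPKM. The surface markers of MSC (THY1, NT5E, ENG and CD44) lay between 3.01 and 94.2 RPKM and the markers of blood cells (PTPRC, CD34 and HLA-DRA) at 0.110 RPKM or less in all 3 cultures. Mature snRNAs carry no poly(A) tail and the labels do not say whether polyadenylated RNA was selected, so the values are levels in these libraries, not molecules per cell. In such bulk samples fewer cells of a type and less RNA per cell cannot be told apart.

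Spliceosomal snRNA entries held 1315384, 272316 and 337084 reads in cultures 1, 2 and 3. That was 2.54%, 0.437% and 0.520% of all counted reads, a mean of 1.17% ± 1.19 (SD, n = 3). Culture 1 lay far above the others, and the mean without it was 0.479%. As a share of small RNA reads the values were 8.98%, 4.80% and 6.22% (6.67% ± 2.12, SD, n = 3), again highest in culture 1 but closer together. The composition of the culture 1 library moves with this difference, and its part in it was not tested.

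U4, the carrier of U6, was the most abundant class per length in every culture. Summed over its 18 entries it reached 74450, 12383 and 16537 RPKM in cultures 1, 2 and 3 (34457 ± 34698, SD, n = 3). U1 followed with 50249, 9234 and 5015 RPKM (21499 ± 24987), and U2 with 29816, 4805 and 9580 RPKM (14734 ± 13278). The order of U1 and U2 depended on the culture, since their ratio was 1.69 and 1.92 in cultures 1 and 2 and 0.524 in culture 3. U5 was lower at 5484, 951 and 1004 RPKM (2480 ± 2602), and the many U6 entries together gave 1017, 418 and 521 RPKM (652 ± 320). U12 closed the order at 395, 97.7 and 105 RPKM (199 ± 170). Neighbours other than U1 and U2 kept their order in 3 of 3 cultures, with U4 at 1.48, 1.34 and 3.30 times U1 and U6 at 2.58, 4.28 and 4.97 times U12. An exact sign-flip permutation test over 3 cultures cannot go below p = 0.25, so none of these orders can pass a threshold of 0.05.

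**Figure D1:**
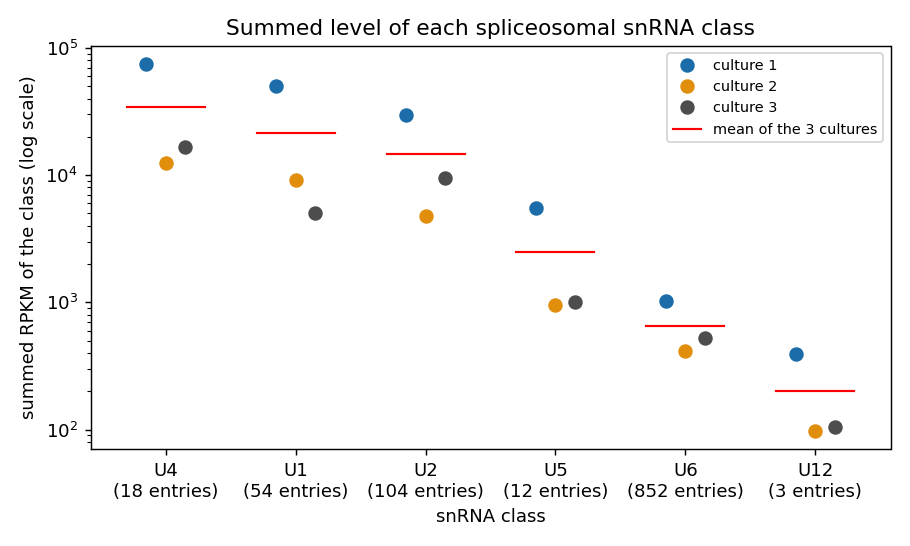
Summed RPKM (vertical axis, log scale) of each snRNA class, with a point for each culture and a red line for the mean of the 3 cultures. Culture 1 is highest in all 6 classes, U4 leads with a mean of 34457 RPKM and U12 is lowest with 199 RPKM.

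As shares of the spliceosomal snRNA reads, U4 and U5 were alike in the 3 cultures while U1 and U2 were not. U4 took 41.6%, 40.2% and 45.1% of the spliceosomal snRNA reads in cultures 1, 2 and 3, and U5 took 2.54%, 2.55% and 2.27%. U1 held 32.6% and 34.8% in cultures 1 and 2 but 15.9% in culture 3. In turn U2 held 22.5% and 21.1% in those cultures and 35.3% in culture 3. U1 was thus ahead of U2 in cultures 1 and 2 and behind it in culture 3. The summed level of U4 was 73.2, 29.6 and 31.8 times that of U6, its partner in the duplex. Reads shared among the 852 U6 entries may not have been counted, so this is not a ratio of molecules.

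A handful of loci carried nearly all of these reads. The highest locus alone held 24.99%, 30.3% and 44.1% of the spliceosomal snRNA reads in cultures 1, 2 and 3 (33.1% ± 9.86, SD, n = 3), and it was the same U4 locus each time. The top 5 loci held 94.2%, 93.4% and 93.8% (93.8% ± 0.42), and the top 10 held 97.9%, 96.7% and 97.1% (97.2% ± 0.59). It took 5, 5 and 4 loci to reach 90% of the reads and 15, 28 and 25 to reach 99%. Of the top 5 loci 4 were shared by all 3 cultures, and of the top 10, 9 were shared. No read fell on 321 of the 1043 entries in any culture.

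**Figure D2:**
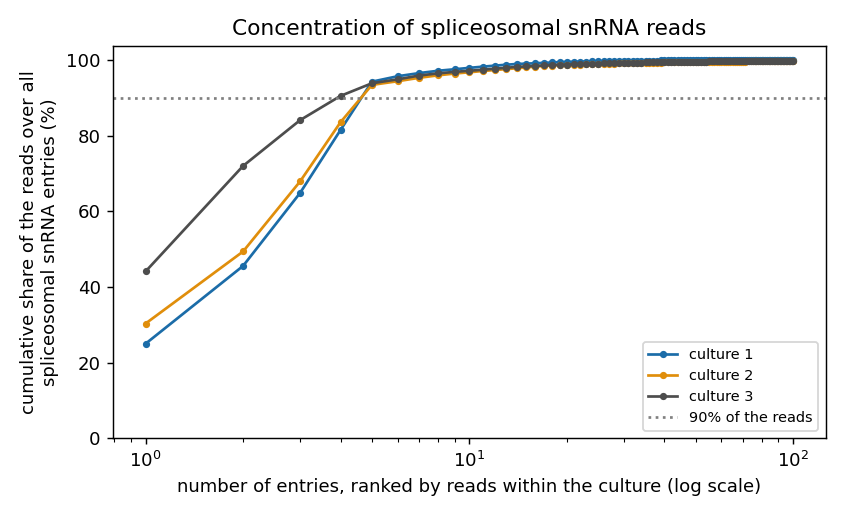
Cumulative share of spliceosomal snRNA reads (vertical axis, %) against the number of entries ranked by reads within each culture (log scale, first 100 entries), a line per culture. All lines pass the dotted 90% line by the fifth entry, and culture 3 starts highest at 44.1%.

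Exactly 6 loci took at least 1% of the spliceosomal snRNA reads on average, 2 each of U4, U2 and U1, and together they held 95.7%, 94.4% and 94.9% in cultures 1, 2 and 3. The 2 U4 loci are neighbours on chromosome 14 of the susScr11 build, 607 bases apart. The first, ENSSSCG00000037051 (40286512 to 40286652), overlaps no other gene and had 44692, 9339 and 16157 RPKM, from 328664, 82553 and 148608 reads. The other, ENSSSCG00000031512 (40287260 to 40287400), overlaps SIRT4, a mitochondrial sirtuin gene, and had 29756, 3042 and 379 RPKM. SIRT4 itself was listed with only 84, 139 and 138 reads, against 218829, 26885 and 3488 for the U4 locus. Whether the overlap lies in an exon or an intron is not analysed here.

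The U1 loci were ENSSSCG00000031377 on chromosome 4 (100478904 to 100479067) with 29703, 4151 and 1054 RPKM and ENSSSCG00000018461 on chromosome 8 (71485553 to 71485716) with 19658, 4906 and 3818 RPKM. The chromosome 4 locus was the higher of the pair in culture 1 and the lower in cultures 2 and 3. It overlaps an unnamed protein-coding entry of 171, 210 and 289 reads, few beside the 253817, 42630 and 11268 of the U1 locus.

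The U2 loci were ENSSSCG00000027405 on chromosome 2 (8928980 to 8929170) with 27187, 4340 and 7557 RPKM and ENSSSCG00000032126 on chromosome 12 (19725680 to 19725870) with 1888, 220 and 1737 RPKM. The chromosome 2 locus lies in WDR74, a gene of ribosome biogenesis. WDR74 was listed with 271298, 52989 and 94875 reads and the U2 locus with 270336, 51870 and 93978, so nearly every read of one entry has a counterpart in the other. Without a stated strand the reads of these 2 entries cannot be told apart.

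All 6 loci lay above 1 RPKM and above 10 RPKM in limma's level test. The adjusted p-values of that test against 1 RPKM ran from 6.6e-20 for the chromosome 8 U1 locus to 0.0054 for the U4 locus in SIRT4, and each locus was above 1 RPKM in 3 of 3 cultures. They lean on the spread of other genes as well as on that of the locus itself.

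The share of a class carried by each locus shifted between cultures, most of all for U4. The U4 locus that does not overlap SIRT4, here the outer locus, held 60.03%, 75.4% and 97.7% of U4 reads in cultures 1, 2 and 3. The one that overlaps SIRT4, here the inner locus, held 40.0%, 24.6% and 2.29%. The ratio of the inner to the outer locus was 0.666, 0.326 and 0.0235, a 28.4-fold range over neighbours 607 bases apart. The inner locus itself spanned 78.5-fold between cultures and the outer 4.79-fold. These shares differ by far more than counting error, whose 95% Wilson interval reached at most 0.36 percentage points to either side for the 6 loci. The interval covers counting error only, since reads without molecular identifiers are not independent molecules. It does not cover how reads shared by near-identical copies were assigned, which is not known. The splits may therefore not be those of the loci themselves. In the F test for spread between cultures the inner locus was not called (adjusted p = 0.70).

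U1 shifted in the same manner to a smaller degree. The chromosome 4 locus held 59.1%, 45.0% and 21.0% of U1 reads and the chromosome 8 locus 39.1%, 53.1% and 76.1%, a 5.47-fold range of their ratio. In U2 the chromosome 2 locus held 91.2%, 90.4% and 78.9% and the chromosome 12 locus 6.33%, 4.58% and 18.1%. In each class the 3 cultures thus gave 3 different splits, though those of cultures 1 and 2 were close in U2. Culture 3 was the farthest from culture 1 in U4, U1 and U2. The 2 leading loci held 98.2%, 98.1% and 97.2% of U1 reads and 97.5%, 94.98% and 97.04% of U2 reads. For U4 they left 16 further entries with almost nothing, the highest being ENSSSCG00000020251 in RICTOR at 0.491, 0.953 and 1.05 RPKM, which the level test did not decide.

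**Figure D3:**
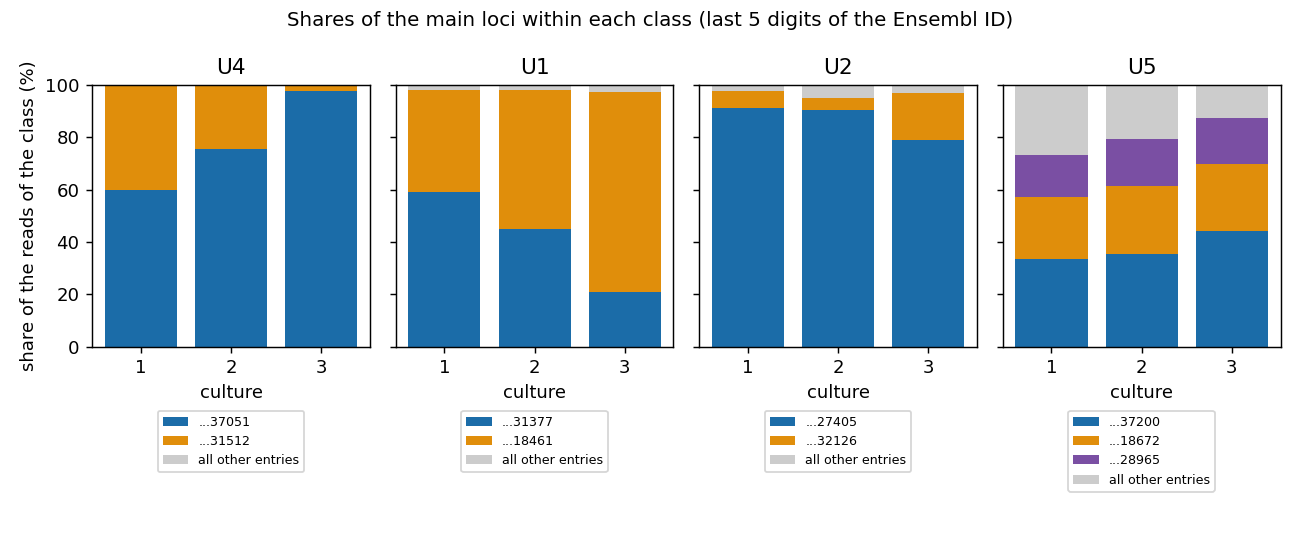
Share of the reads of U4, U1, U2 and U5 (vertical axis, %) held by the leading loci in each culture (horizontal axis), with all other entries in grey. The inner U4 locus holds 2.29% of U4 reads in culture 3 and the chromosome 4 U1 locus 21.0% of U1 reads there.

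U5, the snRNA common to both spliceosomes, was spread over more loci. ENSSSCG00000037200 on chromosome 6 had 1834, 339 and 446 RPKM, and it overlaps ARMH1, which had at most 42 reads. ENSSSCG00000018672 on chromosome 1 had 1309, 244 and 254 RPKM, and ENSSSCG00000028965 on chromosome 6 had 868, 173 and 175 RPKM. They held 33.3%, 35.5% and 44.3%, then 24.0%, 25.8% and 25.5%, and then 15.9%, 18.2% and 17.6% of U5 reads in cultures 1, 2 and 3. The order of the 3 loci was the same in each culture. The 6 entries of 116 or 117 bases held 99.98%, 99.7% and 99.8% of the reads of the class.

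Over the whole set, few members lay above 1 RPKM. In limma's level test 70 of the 722 members with a read (9.70%) were above 1 RPKM, against 30.6% of all 29479 genes tested. Below 1 RPKM were 572 members (79.2%), against 60.8% of all genes tested, and 80 were not decided. Above 10 RPKM were 26 members (3.60%), against 8.71% of all genes tested. The median of the mean level was 0.119 RPKM over members and 0.128 RPKM over all genes tested. By class, 42 U6, 11 U2, 8 U1, 6 U5, 2 U4 and 1 U12 entries were above 1 RPKM, and 7 U6, 7 U2, 5 U5, 4 U1, 2 U4 and 1 U12 above 10 RPKM. Of the 70 members above 1 RPKM 39 overlap another gene and 31 do not.

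In U1, U2 and U4 nearly all reads fell on entries of the commonest length of the class. The 23 U1 entries of 164 bases held 99.9%, 99.9% and 99.7% of U1 reads in cultures 1, 2 and 3. The 19 U2 entries of 191 bases held 99.9%, 99.7% and 99.9% of U2 reads. Only 2 of the 18 U4 entries have 141 bases, and they are the 2 neighbours on chromosome 14. The rest of these classes are shorter or longer entries with few reads.

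U6, which unlike U1, U2, U4 and U5 is made by RNA polymerase III, had the most entries and the least concentrated reads. Its highest entry held 12.1%, 6.22% and 8.33% of U6 reads, and 60, 147 and 75 entries were needed for 90%. ENSSSCG00000035880 on chromosome 15, in KANSL1L, had 99.6, 25.3 and 33.3 RPKM. ENSSSCG00000031363 on chromosome 7 overlaps no other gene and had 123, 12.5 and 15.2 RPKM. ENSSSCG00000037525 on chromosome 13, in the axon guidance receptor gene ROBO2, had 76.9, 25.7 and 43.0 RPKM. These are the 3 highest by mean, each highest in culture 1, and all 3 lay above 1 RPKM in limma's level test, with ENSSSCG00000031363 nearest the threshold (adjusted p = 0.032). No read fell on 285 of the 852 U6 entries, and the 68 with a mean of at least 1 RPKM ranged over means of 1.004 to 52.7 RPKM with a median of 2.28.

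Both length and surroundings went with the level of a U6 entry. Of 332 entries of 107 bases 28 were above 1 RPKM, against 10 of 423 shorter and 4 of 97 longer entries, and all 7 U6 entries above 10 RPKM had 107 bases. Entries of that length held 88.1%, 64.4% and 71.3% of U6 reads in cultures 1, 2 and 3. Of 102 entries that overlap a gene with a mean of at least 10 RPKM, 18 (17.6%) were above 1 RPKM. Of 157 that overlap a gene of 1 to 10 RPKM 8 (5.10%) were, of 195 that overlap a gene under 1 RPKM 2 (1.03%), and of 398 that overlap no other gene 14 (3.52%). Over the 454 U6 entries that overlap another gene, Spearman's rho between the RPKM of the entry and of that gene was 0.23, 0.30 and 0.36 in cultures 1, 2 and 3. This is a description across genes of 1 library each, which are not independent replicates. The reads of a U6 entry and of the gene around it cannot be told apart without a stated strand.

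On the minor side 1 locus stood for U12, the counterpart of U2 at the branch point. ENSSSCG00000019768 on chromosome 5 (6174022 to 6174171) had 394, 95.8 and 103 RPKM, from 3079, 900 and 1005 reads, and held 99.7%, 98.0% and 98.0% of U12 reads. It was above 1 RPKM in limma's level test (adjusted p = 5.7e-12, 3 of 3 cultures). It lies in POLDIP3, which had 7932, 10464 and 8362 reads. The reads of the U12 locus and of POLDIP3 cannot be told apart without a stated strand. ENSSSCG00000018599 in FBXO21 had 1.04, 1.94 and 2.18 RPKM and was not decided (limma, adjusted p = 0.054), though it was called above with either other pseudocount (0.1 or 1 RPKM), with at least 10 reads per gene tested, scaled to protein-coding reads and without culture 1. ENSSSCG00000024153 on chromosome 8 had 2 reads in culture 1 and none in cultures 2 and 3, and lay below 1 RPKM (limma, adjusted p = 1.3e-09).

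The major snRNAs exceeded this minor one by more than the spread between cultures. The summed level of U1, U2, U4 and U6 was 155532, 26840 and 31654 RPKM in cultures 1, 2 and 3, against 395, 97.7 and 105 RPKM for U12. The ratio was 394, 275 and 302, or 8.32 ± 0.27 on the log2 scale (SD, n = 3). Its log2 value lay above 0 in each of the 3 cultures (p = 0.25 by exact sign-flip permutation, two-sided, the lowest p possible with 3 cultures). Both levels were highest in culture 1, and so was their ratio. This ratio sets 4 major snRNAs against a single minor one, since U11, U4atac and U6atac have no entry by name. The 30 snRNA entries without a name are on neither side. Among them ENSSSCG00000026416 had 306, 53.1 and 61.9 RPKM and ENSSSCG00000024742 had 201, 45.9 and 39.1 RPKM in cultures 1, 2 and 3. Whether any of them belongs to a missing minor class was not tested, and the ratio would be lower if so. With U5 counted on the major side the log2 ratio was 8.37 ± 0.27.

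The direct counterpart of U12 is U2, and this was the only one of the 4 planned pairs with entries on both sides. U2 exceeded U12 75.5-, 49.2- and 91.3-fold in cultures 1, 2 and 3, or 6.12 ± 0.46 on the log2 scale (SD, n = 3, p = 0.25 by the same exact test, also after adjustment over the 1 pair computed). Most of the U2 level comes from the locus in WDR74, and without that entry, an alternative chosen after seeing the data, the log2 ratio of U2 to U12 was 3.09 and that of all major snRNAs to U12 8.01. U5, which serves both spliceosomes, exceeded U12 13.9-, 9.74- and 9.57-fold.

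Members were counted by the culture in which they were highest. Of the 113 members with a mean of at least 1 RPKM 57 (50.4%) were highest in culture 1 and 42 lowest there, against 2336 of 10474 genes of that level (22.3%) highest there. The mean is taken over all cultures, so a low entry can reach 1 RPKM through culture 1 alone and is then highest there, and these counts depend in part on the filter. Of members that overlap no other gene 35 of 44 (79.5%) were highest in culture 1, with a median log2 difference of 1.90 to culture 2 and 1.45 to culture 3. Of those that overlap another gene 22 of 69 (31.9%) were highest in culture 1, with medians of -0.18 and -0.34. The values for all genes of that level were -0.34 and -0.15. Among entries of small nucleolar RNAs (snoRNA), which guide RNA modification, 214 of 287 (74.6%) were highest in culture 1, where small RNA took 28.3% of reads. The part of that composition in the order of the cultures was not tested.

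Within U6 the same split ran by length and surroundings. Of 15 U6 entries of 107 bases that overlap no other gene, 14 were highest in culture 1, and of 20 of that length that do overlap one, 9 were. Of 31 entries of another length that overlap a gene 3 were highest in culture 1 and 22 in culture 3. The remaining 2, of another length with no overlap, were both highest in culture 2. These U6 entries were taken at the same mean of at least 1 RPKM, so an entry high in culture 1 alone could enter through it, and the counts are a description.

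**Figure D4:**
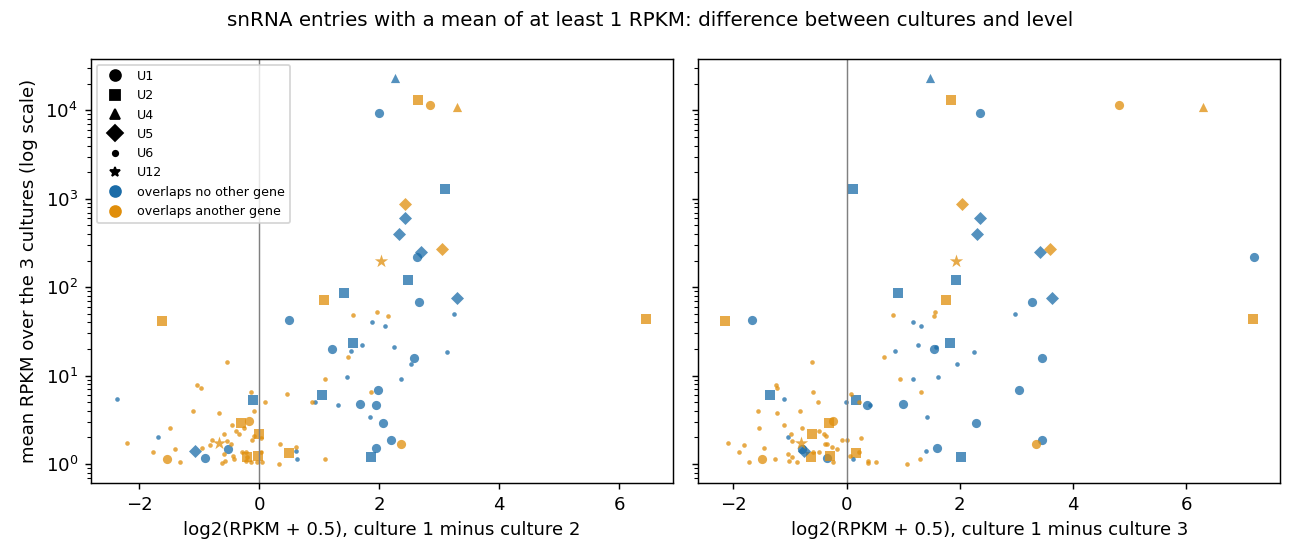
Difference in log2(RPKM + 0.5) of each of the 113 members with a mean of at least 1 RPKM, culture 1 minus culture 2 (left) and culture 1 minus culture 3 (right), against its mean RPKM (vertical axis, log scale). Shape gives the class and colour tells whether the entry overlaps another gene; members with a mean above 100 RPKM all lie to the right of 0, and those near 1 RPKM that overlap another gene lie on both sides of it.

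No member passed the test for spread between cultures beyond that of genes of like level, and neither did any other gene (0 of 113 members and 0 of 10474 genes, 0%, adjusted p from limma's variances). The smallest adjusted p was 0.356. Without adjustment 35 of 113 members (31.0%) had p under 0.05 in this F test, against 621 of 10474 genes (5.93%). Without culture 1 it was 12 of 114 members, with 633 genes in all. An entry high in culture 1 alone can reach a mean of 1 RPKM and then has a wide spread. The share of members thus depends in part on the filter. The median SD of log2(RPKM + 0.5) over cultures was 0.77 over members and 0.31 over all genes of that level. Adjusted counts depended on the filter and on single libraries, with 13 of 722 members (123 genes in all) called with no filter on level, 2 of 114 (14 genes) with median-of-ratios size factors and 10 of 111 (131 genes) without culture 3.

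A few further U1 and U2 entries had values far apart between cultures. The U1 entry ENSSSCG00000039726 on chromosome 7 had 568, 91.5 and 3.37 RPKM, and its level against 1 RPKM was not decided (limma, adjusted p = 0.11) except without culture 3. The U2 entry ENSSSCG00000040316, named after its values were seen, had 131, 1.004 and 0.402 RPKM, from 1302, 12 and 5 reads. The U1 entry ENSSSCG00000034558, named for the same reason, was highest in culture 3 with 26.1, 18.4 and 84.2 RPKM. The U2 entry ENSSSCG00000036600 on chromosome 12 had 253, 44.9 and 65.5 RPKM.

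Some U1 and U2 entries stand in arrays, here at least 3 entries of a class with gaps of at most 20 kb. The U2 array on chromosome 12 (19660902 to 19725870) holds 10 entries of 191 bases, all with reads and 8 of them above 1 RPKM. It took 8.72%, 9.22% and 20.9% of U2 reads in cultures 1, 2 and 3, and the main locus ENSSSCG00000032126 at its end took 72.6%, 49.7% and 86.6% of that. The U1 array on chromosome 12 (34914880 to 34969111) has 13 entries of 164 bases, of which 7 had at most 3 reads, counting 5 with none, and 4 were above 1 RPKM. It took 0.158%, 0.421% and 2.13% of U1 reads, so both arrays on chromosome 12 held their largest share in culture 3. A U1 array on chromosome 7 (65206096 to 65235032) with 5 entries went the other way at 1.54%, 1.34% and 0.457%, and it includes ENSSSCG00000039726. Copies within an array may be near-identical, so reads cannot be assigned to one copy with certainty.

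The genes of the proteins that work with these RNAs mostly lay above 1 RPKM. Over 6 lists with 101 measured genes of 110, 92 were above 1 RPKM in limma's level test, 0 below and 9 not decided, and 21 were above 10 RPKM. Of all genes tested 30.6% were above 1 RPKM, 60.8% below and 8.71% above 10 RPKM. Their median mean level was 6.996 RPKM, against 0.795 RPKM over protein-coding genes tested and 0.128 RPKM over all genes tested. For 21 of the 101 an overlapping gene had at least as many reads.

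Of 12 measured Sm and LSm proteins, which form rings on the snRNAs, 11 were above 1 RPKM, led by SNRPE (92.8 ± 15.8 RPKM, SD, n = 3), LSM2 of the ring on U6 (38.4 ± 8.80) and SNRPD2 (28.4 ± 7.66). All 16 proteins of U1 and U2 snRNP were above, with SF3B1, which clamps the branch point, at 78.8 ± 25.9 RPKM and its partners SF3B3 at 40.1 ± 4.95 and SF3B4 at 25.8 ± 6.54. Of 16 proteins of U4/U6 and U5 snRNP 15 were above, led by the U4-binding SNU13 (64.6 ± 16.9), the U5 core protein PRPF8 (53.1 ± 8.36) and SNRNP200 (26.4 ± 6.86), the helicase that unwinds U4 from U6. These 3 lists had medians of 7.45, 14.3 and 10.2 RPKM.

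Of 12 measured proteins of the minor spliceosome 10 were above 1 RPKM, 0 below and 2 not decided, with a median of 4.86 RPKM. The U11/U12 proteins SNRNP25 (8.60 ± 1.89 RPKM), ZCRB1 (8.69 ± 3.35), ZMAT5 (6.81 ± 1.42), SNRNP48 (4.90 ± 0.613), RNPC3 (4.81 ± 1.60), PDCD7 (4.06 ± 0.710) and SNRNP35 (3.15 ± 0.829) were above. So were SCNM1 (16.4 ± 2.31), TXNL4B (9.49 ± 0.590) and ZRSR2 (3.98 ± 1.995), which recognises the 3′ splice site of U12-type introns. CENATAC (1.54 ± 0.285) and ARMC7 (1.01 ± 0.488) were not decided, with limma's adjusted p at 0.10 and 0.85, and CENATAC was called above without culture 1 and when scaled to protein-coding reads. An overlapping gene had at least as many reads as CENATAC, ZCRB1, SNRNP25, SNRNP35, ARMC7, ZRSR2 and RNPC3, so the values of these 7 may include reads of another gene. The median of these genes lay below those of the Sm and LSm, U1 and U2, and U4/U6 and U5 lists (7.45, 14.3 and 10.2 RPKM). It lay above that of the snRNA transcription list (3.47 RPKM). The other lists are not confined to the major spliceosome, since U5 serves both and Sm rings form on snRNAs of both. The medians therefore do not set major against minor proteins. U12 was the lowest snRNA class, and a link between these levels was not tested.

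The list of snRNA transcription also holds the subunits of Integrator. Of its 21 measured genes 18 were above 1 RPKM, 0 below and 3 not decided, with a median of 3.47 RPKM. The highest were subunits of Integrator, which cleaves the 3′ ends of snRNAs made by RNA polymerase II, namely INTS8 (13.6 ± 3.11 RPKM), INTS7 (11.3 ± 1.67) and INTS10 (10.9 ± 1.62). INTS7 overlaps LPGAT1, which had more reads than INTS7 itself. Of 24 genes of end processing, modification, export and snRNP assembly 22 were above and 2 not decided, with a median of 6.19 RPKM. STRAP of the SMN complex had 51.8 ± 2.33 RPKM, SSB (the La protein, which binds new RNA polymerase III transcripts) 24.0 ± 5.08 and LARP7, which aids U6 modification, 17.4 ± 7.90. No gene of these 6 lists with a mean of at least 1 RPKM had a p under 0.05 in the F test of spread, without adjustment. Of all genes of that level 5.93% did, and of the snRNA entries 31.0%, a share that depends in part on the filter.

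**Figure D5:**
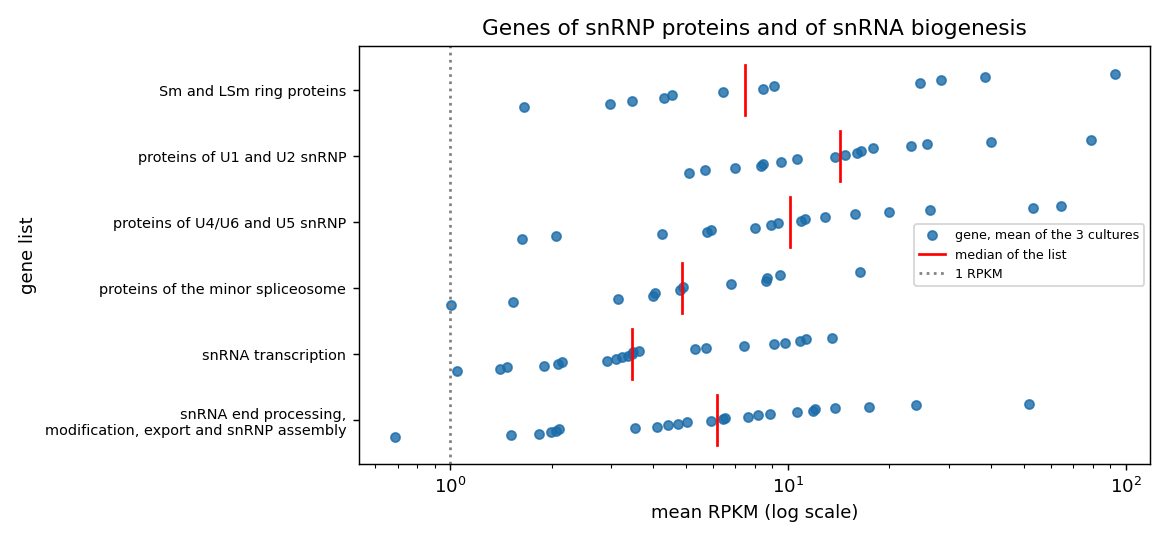
Mean RPKM over the 3 cultures (horizontal axis, log scale) of each measured gene in the 6 lists, with a red bar at the median of the list and a dotted line at 1 RPKM. Medians run from 3.47 RPKM for snRNA transcription to 14.3 RPKM for U1 and U2 proteins, and the minor spliceosome list lies between them at 4.86 RPKM.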

How the data were processed

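The authors deposited RPKM per Ensembl gene for 3 MSC libraries, per the file headers, and the genome build is susScr11, per the submitters' processing notes. How reads were aligned and counted, with which annotation and strand setting, is not given in the sources used here. RPKM times gene length plus 1 base gave whole reads for 100% of values within 0.0001 of a read, and the deposited values were scaled by the sum of these reads over all entries, overlapping ones included.

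Limma 3.58.1 in R 4.3.3 was fitted on log2(RPKM + 0.5), which understates differences of low genes, with trended robust variances. The level of 29479 genes with at least 1 read was tested against 1 and 10 RPKM. Spread was tested over the 10474 genes whose mean reached 1 RPKM by an F test of the variance over limma's trended prior variance, with 2 residual degrees of freedom. Adjusted p-values are Benjamini-Hochberg values over all genes tested, at a threshold of 0.05. Tests were tested on simulated data. Class ratios used an exact sign-flip permutation test. Overlap of entries was taken from their coordinates on either strand. An entry said to lie in a gene overlaps it, in whole or in part.

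The members, lists and tests were chosen with earlier results of these data known. Named are the 3 members of highest mean RPKM per class, any with at least 1% of member reads, the 3 highest genes per protein list and each minor spliceosome gene. Of the list genes 93 were matched by name in the table and 8 through a table of gene names. Alternatives were the pseudocount, filters, scaling, overlap with other genes and each culture left out. An item of the marker list is not reported here.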

Additional observations from a re-analysis of the deposited data

Results flagged for a closer look

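Reads also fell on snRNA entries outside the spliceosomal set in every culture. The 4 entries named U7 held 40, 35 and 44 reads in cultures 1, 2 and 3, and 2 of them had no read. The 30 snRNA entries without a name held 3612, 865 and 921 reads, and 8 of them had no read. Of these ENSSSCG00000026416 on chromosome 15 (29861896 to 29862021) had 306, 53.1 and 61.9 RPKM, and ENSSSCG00000024742 on chromosome 6 (85649448 to 85649581) had 201, 45.9 and 39.1 RPKM. Both were above 1 RPKM in limma's level test (adjusted p = 5.8e-07 and 1.3e-07) and were highest in culture 1. The table gives neither a class, and none was assigned here. There are no control samples, and the sums over these entries were not tested.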

How the results depend on the processing

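Alternatives were a pseudocount of 0.1 or 1 RPKM, filters on reads or level, other scalings, members without overlap, and each culture left out. Among members that overlap no other gene, 31 were above 1 RPKM (70 with all members), 288 below (572) and 15 above 10 RPKM (26), as fewer entries were counted. There U4 held 61.7% of reads, U2 5.96% and U12 0.000122%, the top 1, 5 and 10 loci held 61.7%, 96.8% and 98.8%, and 2.33 loci reached 90% on average. The ratio of major to minor snRNAs could not be computed on them, since their U12 entry had no read in cultures 2 and 3. With at least 10 reads 30 members were below 1 RPKM. The spread test called 13 members (of 123 genes) with no filter, 2 (of 14) with size factors, and 0 to 10 with a culture left out, the 10 (of 131) without culture 3. Member reads were 6.67% of small RNA reads, and the top 5 loci held 92.8% of summed RPKM. With a culture left out, 66 to 79 members were above 1 RPKM, 406 to 529 below and 24 to 32 above 10, their share of reads was 0.479% to 1.53%, the top locus held 27.7% to 37.2%, and the log2 ratio of major to minor was 8.17 to 8.43. Without the U2 entry in WDR74, chosen after seeing the data, members took 0.916% of reads. For 45 named genes 348 of 358 alternative values kept direction and call, 8 gained a call and 2 changed sign, both for ARMC7, whose log2 difference to 1 RPKM was -0.050 with all cultures, 0.12 scaled to protein-coding reads and -0.22 to 0.26 with a culture left out. Other causes were not tested. No paired analysis was possible because all samples belong to 1 group.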
